A study of Mus musculus with 26 samples.

Results

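Promoter capture Hi-C (PCHi-C) lists of wild-type mouse embryonic stem cells (WT ESC) and of epiblast-derived stem cells (EpiSC) were compared promoter by promoter. Every baited promoter fragment with a contact on its own chromosome (a cis pair) in either list was taken, which gave 18646 of the 18955 baits that have a cis pair in any of the 3 deposited lists. A pair is a baited HindIII fragment and the fragment it was ligated to, counted once, and its distance runs between the fragment midpoints. WT ESC were E14Tg2a cells, named as 129P2/OlaHsd in the growth protocol, kept on gelatin in serum with LIF. EpiSC were derived from 129S2 embryos and kept on fibronectin in N2B27 with Activin A and bFGF. All samples carry the strain tag C57BL/6, which goes against both of these names. Nanog-/- ESC (RCNβH-B(t), 1 line made from E14Tg2a, selected with hygromycin) share the culture of WT ESC and their numbers are set beside some results. There were 5 sequenced lanes for WT ESC, 2 for EpiSC and 5 for Nanog-/- ESC, but the authors merged them into 1 list per cell type. Each value below is therefore a single value with no replicate check, no test of a difference could be made, and cell type, strain, culture and library cannot be told apart.

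ESC in serum and LIF are held near the naive state of the blastocyst, whereas EpiSC are in the primed state of the later epiblast, in which Activin and FGF signals maintain pluripotency and lineage genes are closer to activation. Promoters meet distal enhancers and other promoters by folding of the chromosome, and such contacts are captured by cross-linking, cutting, ligating and pulling down ligation products with promoter baits. The CHiCAGO score measures how far the read count of a fragment pair lies above the count modelled for its distance and for technical noise, and the deposited lists hold pairs that passed the authors' score threshold.

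The first set of sequences shows promoters at the ends of the range. Sox4 and Dkk1 stood among the promoters with more pairs in EpiSC, and Calm3 and Krtap17-1 among those with fewer. Each is 250 bases before to 50 bases after the annotated start, from RefSeq GRCm38.p6, read 5′ to 3′ on the minus strand that all 4 genes use, with every CG in capitals. They lie at chr13:28953650-28953949, chr19:30549447-30549746, chr7:16923983-16924282 and chr11:99993945-99994244.
Sox4 promoter: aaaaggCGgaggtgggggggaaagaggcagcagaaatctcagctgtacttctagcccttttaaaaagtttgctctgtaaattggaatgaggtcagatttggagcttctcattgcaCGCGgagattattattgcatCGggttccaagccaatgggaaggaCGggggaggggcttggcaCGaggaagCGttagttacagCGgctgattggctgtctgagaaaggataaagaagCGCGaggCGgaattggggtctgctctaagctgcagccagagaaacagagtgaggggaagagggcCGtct
Dkk1 promoter: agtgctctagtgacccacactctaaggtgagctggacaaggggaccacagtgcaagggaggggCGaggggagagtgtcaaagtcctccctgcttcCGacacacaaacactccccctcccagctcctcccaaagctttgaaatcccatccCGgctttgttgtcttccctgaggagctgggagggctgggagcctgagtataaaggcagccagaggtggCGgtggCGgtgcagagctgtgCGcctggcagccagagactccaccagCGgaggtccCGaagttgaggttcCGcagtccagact
Calm3 promoter: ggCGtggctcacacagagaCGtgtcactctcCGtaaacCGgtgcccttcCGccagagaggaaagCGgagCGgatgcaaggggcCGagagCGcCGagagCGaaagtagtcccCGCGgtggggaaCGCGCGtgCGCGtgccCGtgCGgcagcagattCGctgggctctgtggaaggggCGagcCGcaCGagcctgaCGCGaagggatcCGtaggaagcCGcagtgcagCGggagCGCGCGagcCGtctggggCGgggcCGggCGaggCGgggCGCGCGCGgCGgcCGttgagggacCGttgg
Krtap17-1 promoter: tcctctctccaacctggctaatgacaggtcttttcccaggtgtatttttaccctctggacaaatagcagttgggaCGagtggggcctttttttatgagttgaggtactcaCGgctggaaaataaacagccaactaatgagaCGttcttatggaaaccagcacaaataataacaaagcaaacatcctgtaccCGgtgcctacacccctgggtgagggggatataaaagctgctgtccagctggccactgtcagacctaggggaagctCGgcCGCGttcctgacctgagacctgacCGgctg

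The Sox4 promoter holds 12 CG, Dkk1 9, Calm3 44 and Krtap17-1 8. A RefSeq promoter sequence was matched for 11087 baits, with a median of 16 CG. The 570 matched promoters that gained pairs (defined below) had a median of 21 CG and the 1161 that lost pairs a median of 13.

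The second set shows whole HindIII fragments from the GRCm38 genome, on the plus strand, with the bases left by the cut AAGCTT in capitals at both ends. They are shown because short fragments carried many of the gains. The bait of Gm11158 (chr1:34403436-34403591) had 11 pairs in WT ESC and 54 in EpiSC. The partner of Sox4 (chr13:29826416-29826618) lies in an intron of Cdkal1 and the partner of Dkk1 (chr19:30358930-30359085) between genes, and both pairs were listed in EpiSC and not in WT ESC. The partner of Sox2 (chr3:35100113-35100359) was listed in both. The fragment in an intron of Hist1h2be (chr13:23591376-23591557) was a partner of 0 promoters in WT ESC, 11 in EpiSC and 0 in Nanog-/- ESC.
Gm11158 bait fragment: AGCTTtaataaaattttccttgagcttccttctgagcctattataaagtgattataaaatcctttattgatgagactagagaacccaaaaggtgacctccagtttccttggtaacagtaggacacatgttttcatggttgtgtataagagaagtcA
Sox4 partner fragment: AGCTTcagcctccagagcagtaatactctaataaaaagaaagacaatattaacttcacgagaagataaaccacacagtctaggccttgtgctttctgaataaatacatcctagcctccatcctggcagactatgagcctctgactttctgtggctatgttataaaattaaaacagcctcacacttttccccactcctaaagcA
Dkk1 partner fragment: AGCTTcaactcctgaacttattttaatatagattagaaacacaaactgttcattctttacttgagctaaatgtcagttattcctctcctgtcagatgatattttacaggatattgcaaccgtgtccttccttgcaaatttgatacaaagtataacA
Sox2 partner fragment: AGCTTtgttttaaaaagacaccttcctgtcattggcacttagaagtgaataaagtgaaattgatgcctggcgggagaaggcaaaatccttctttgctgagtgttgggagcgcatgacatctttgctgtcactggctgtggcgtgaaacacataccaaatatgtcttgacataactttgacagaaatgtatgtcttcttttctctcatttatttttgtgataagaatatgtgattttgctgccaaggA
Hist1h2be intron fragment: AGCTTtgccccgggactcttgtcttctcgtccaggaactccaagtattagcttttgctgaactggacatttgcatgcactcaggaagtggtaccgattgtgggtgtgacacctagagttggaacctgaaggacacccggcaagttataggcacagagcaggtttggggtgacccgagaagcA

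The WT ESC list held 99706 cis pairs from 2177284 reads (all pairs) and the EpiSC list 86981 from 1651286. The median pair had 13 reads in WT ESC and 11 in EpiSC, so the WT ESC list was the deeper of the pair. The median cis distance was 139 kb in WT ESC, 141 kb in EpiSC and 74.1 kb in Nanog-/- ESC. Pairs of over 800 kb made up 1.297% of the WT ESC cis pairs and 1.78% of the EpiSC cis pairs. Bait-to-bait pairs, in which both ends are promoters, were 23.3% of the WT ESC list and 18.4% of the EpiSC list. The RNA-seq medians of the authors fitted the labels in part. On the centered log2 scale described below, all 7 naive markers in the table were at least 2-fold lower in EpiSC. Among them were Esrrb (210 to 0.775 RPKM) and Klf2 (302 to 5.56 RPKM), whereas Nanog (418 to 361 RPKM) was 2-fold lower only through the centering. On the same scale 4 of 8 primed markers were at least 2-fold higher, such as Fgf5 (4.74 to 219 RPKM). Zic2 (29.3 to 108 RPKM) and Pou3f1 (23.0 to 80.7 RPKM) fell just short of 2-fold after centering. Otx2, also a primed marker, went from 39.5 to 78.0 RPKM, a log2 ratio only 0.11 above the general shift between the columns. Dnmt3b, the last of the 8, went from 210 to 271 RPKM, less than that shift (centered log2 ratio -0.49).

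Of the WT ESC cis pairs, 39.6% were also in the EpiSC list (95% Wilson interval 39.3 to 39.9%). Of the EpiSC cis pairs, 45.4% were also in the WT ESC list (45.1 to 45.7%). These intervals, like all below, cover counting error only. Counting a partner within 10 kb as shared raised the shares to 63.4% and 69.7%. Sharing fell with distance, from 54.6% of WT ESC pairs under 20 kb to 24.5% between 800 kb and 2000 kb. It climbed with the score, from 23.4% of WT ESC pairs scoring 5 to 6 to 93.1% of those at 20 or more (91.6 to 94.4%). The WT ESC pairs with the highest scores were thus nearly all listed in EpiSC. For EpiSC pairs the matching shares were 29.4% and 95.1%. By read count the top share was lower, at 72.0% of WT ESC pairs with 100 or more reads. The 39488 shared pairs had a median of 16 reads in WT ESC and 14 in EpiSC.

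**Figure D1:**
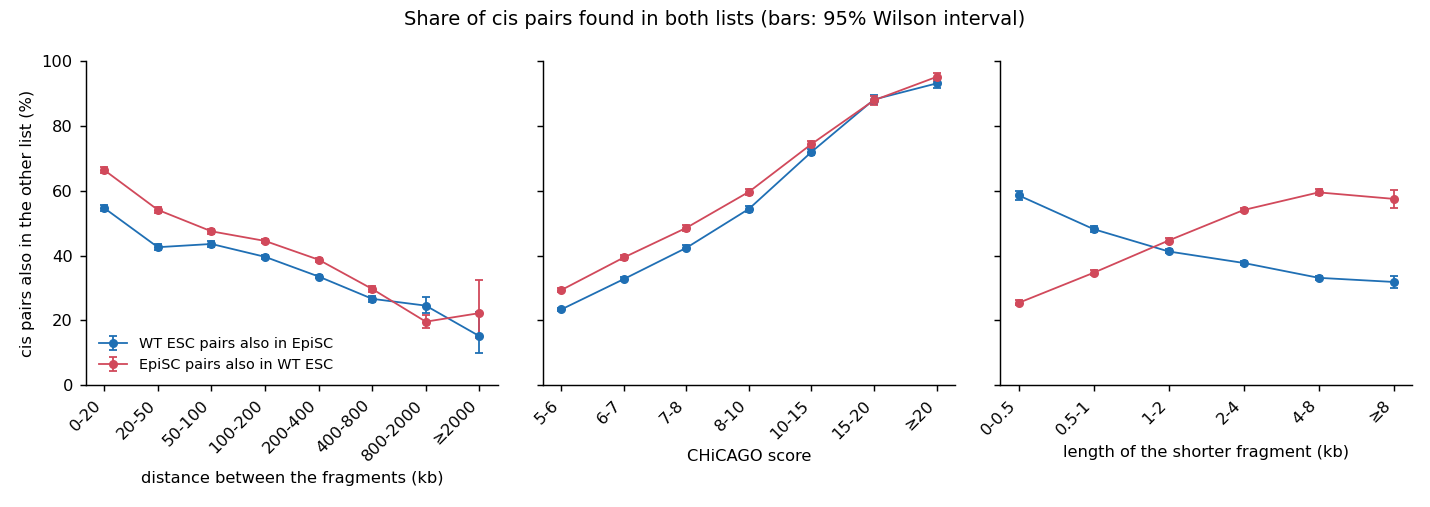
Share of cis pairs of each list that were also in the other list (y axis, percent) by distance in kb, by CHiCAGO score and by the length of the shorter fragment in kb; points are shares and bars are 95% Wilson intervals. Sharing falls with distance and climbs to 93.1% and 95.1% at scores of 20 or more in both lists, while the lines for WT ESC and EpiSC cross over fragment length.

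The lists differed in a property of the fragments themselves. Where bait and partner were both at most 500 bp long, EpiSC had 4.50 times as many pairs as WT ESC (63 against 14), and where bait and partner were each 8 to 16 kb it had 0.50 times as many (1338 against 2687). Between Nanog-/- ESC and WT ESC the same ratios ran from 0.56 to 1.096 over all length classes, with no such slope. Partners of unbaited pairs seen in WT ESC only had a median length of 2798 bp, those of shared pairs 2131 bp and those of EpiSC-only pairs 1381 bp. The part of this slope in each result below was not tested, so counts are given as listed and, where it matters, with every WT ESC pair weighted by the EpiSC to WT ESC ratio of its class of bait and partner length (length-weighted). By construction the weighted WT ESC total equals the EpiSC total, so the length-weighted ratio over all promoters is fixed at 1.00.

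**Figure D2:**
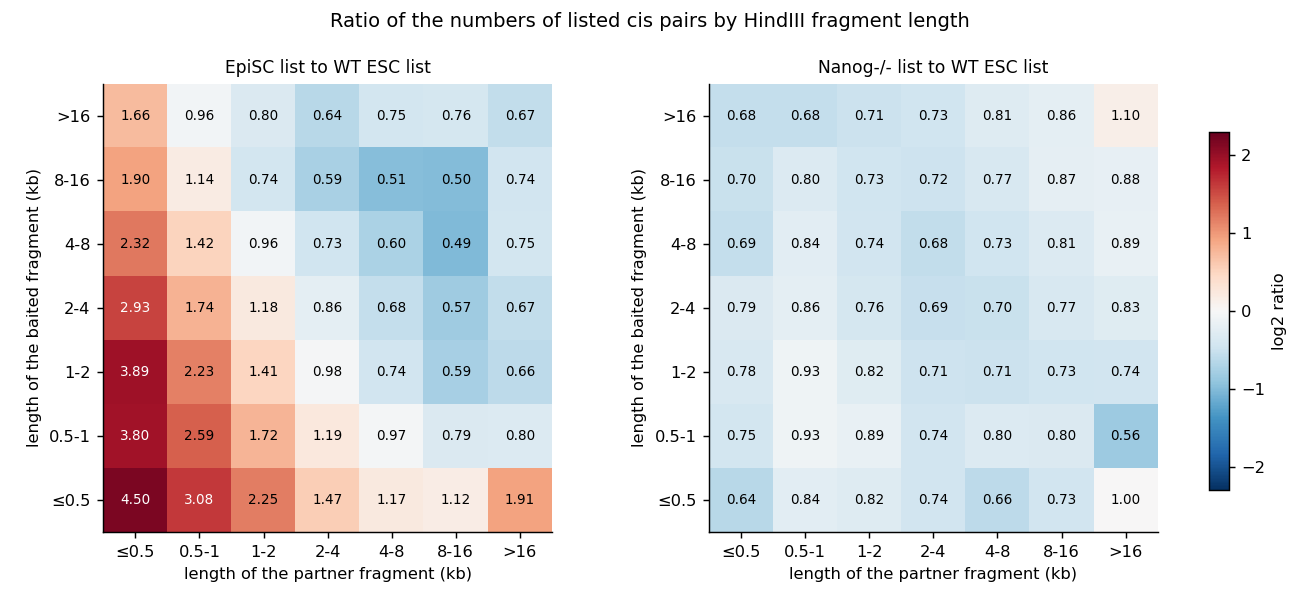
Ratio of the number of listed cis pairs of EpiSC (left) and of Nanog-/- ESC (right) to WT ESC, by length of the partner fragment (x axis, kb) and of the baited fragment (y axis, kb); color is the log2 ratio and each cell prints the ratio. The EpiSC ratios run from 4.50 for the shortest pairs of fragments to 0.49, whereas the Nanog-/- ratios stay between 0.56 and 1.096.

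Per promoter, the number of cis pairs went from a median of 4 in WT ESC to 3 in EpiSC, and the mean from 6.59 to 5.52. There were more pairs in EpiSC at 6389 promoters, fewer at 9974 and an equal number at 2283. A promoter was called gained where EpiSC had at least 5 pairs more and a (number + 1) ratio of at least 2, and lost in the mirror case. By this rule 889 promoters gained pairs, 4.77% of 18646, and 1853 lost pairs, 9.94%. Just inside the rule, 216 gained and 353 lost promoters differed by exactly 5 pairs. Just outside it, 275 and 519 differed by 4 pairs at the same fold. Scaling the WT ESC numbers to the EpiSC total gave 1000 gained and 1079 lost. The length-weighted counts were 1028 gained (5.51%) and 884 lost (4.74%), of which 805 and 822 were calls by both counts. Losses outnumbered gains as listed and gains outnumbered losses after weighting. The weighting evens out the list totals as well as fragment length, and the part of each in this change was not tested. The same rule between WT ESC and Nanog-/- ESC, which uses the same WT ESC list, called 265 gained (1.49%) and 1758 lost (9.87%) of 17803.

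**Figure D3:**
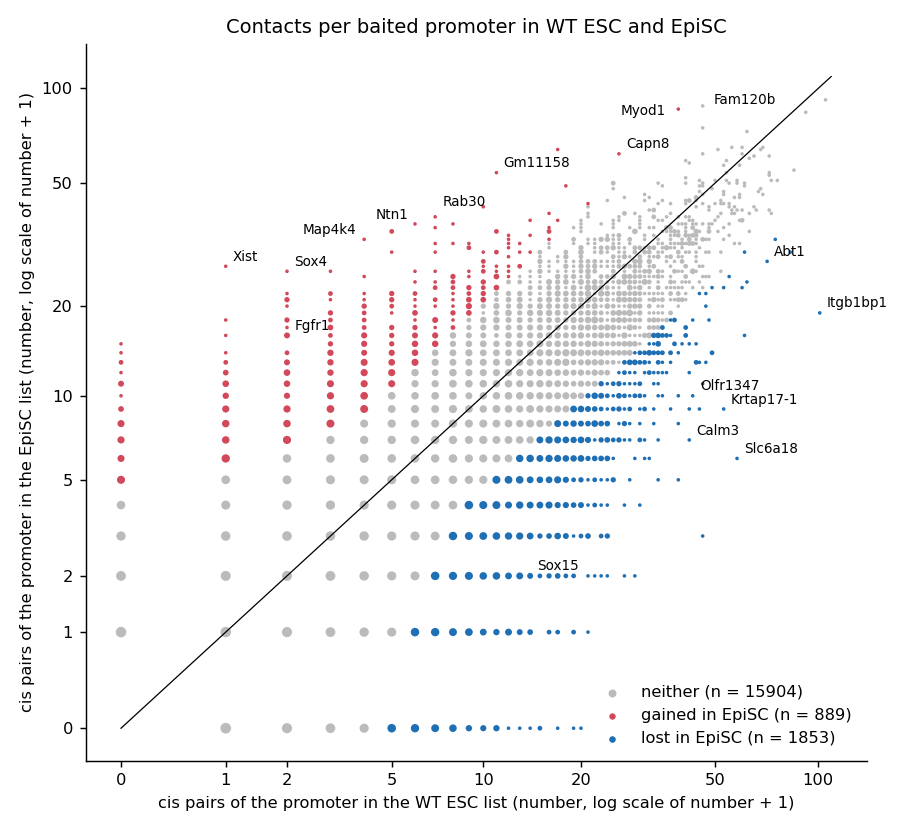
Number of cis pairs of each baited promoter in the WT ESC list (x axis) and in the EpiSC list (y axis), both on a log scale of number + 1; point size grows with the number of promoters at that spot, red marks gained, blue lost and gray neither, and the line is equality. Myod1 (39 and 86 pairs) and Gm11158 (11 and 54) lie far above the line, Itgb1bp1 (101 and 19) and Slc6a18 (58 and 6) far below it.

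The 15 named promoters with the largest gains, 1 per run of neighboring baits within 200 kb, lay on 10 chromosomes and summed to 239 pairs in WT ESC, 735 in EpiSC and 213 in Nanog-/- ESC. Of their WT ESC pairs 82.0% were also in EpiSC, a share that choosing promoters with many EpiSC pairs raises by itself. Myod1, the muscle determination factor, had 39 pairs in WT ESC, 86 in EpiSC and 33 in Nanog-/- ESC, at a gene with 0.0880 and 0 RPKM. Gm11158 had 11, 54 and 11 and Capn8, a calpain protease, 26, 62 and 24. Their RPKM were 0 and 0 for Gm11158 and 0 and 0.0686 for Capn8, so transcript was low or unseen in both cell types at these 3 genes. Fam120b (46, 88 and 40) and Kif26a (46, 75 and 49) gained as many pairs but less than 2-fold. Gains at Myod1, Capn8, Fam120b and Kif26a were not called after length weighting, and those of the other 11 were.

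Genes of signaling and guidance followed in the list. Shisa2, which encodes a protein that holds back Wnt and FGF receptors in the endoplasmic reticulum, went from 10 pairs to 42 (5 in Nanog-/- ESC), and 41 of the 42 lay in the body of its neighbor Atp8a2 alone and 1 where Atp8a2 and Nupl1 meet. Ntn1, the axon guidance ligand netrin-1, went from 6 to 37 (5 in Nanog-/- ESC), 27 of them in fragments of Stx8 alone against 3 in WT ESC, and 1 in each list in a fragment that overlaps both Stx8 and Cfap52. Cdon, a coreceptor for Hedgehog, went from 5 to 35 (10 in Nanog-/- ESC). Shisa2 RPKM went from 7.29 to 32.4, Cdon RPKM from 8.02 to 35.7, whereas Ntn1 went from 24.0 to 30.6, less than the general shift.

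Rab30, a small GTPase of the Golgi, went from 7 pairs to 39 (1 in Nanog-/- ESC), Phf15, a PHD finger gene, from 5 to 35 (9) and Map4k4, a kinase upstream of JNK, from 4 to 33 (7). Irf2bp2, a transcriptional corepressor, went from 7 to 36 (0 in Nanog-/- ESC), Zswim6 from 8 to 37 (5) and Gm11444, next to Tbx2 and Tbx4, from 18 to 49 (12). Among the 10 of the 15 genes with at least 1 RPKM in either cell type, 3 were at least 2-fold higher in EpiSC and 1, Rab30 (4.55 to 2.57 RPKM), at least 2-fold lower on the centered scale described below. Xist, the RNA that coats the inactive X chromosome, went from 1 pair to 27 (2 in Nanog-/- ESC), and has no entry in the RPKM table. All 27 partners of Xist lay at higher coordinates, at distances up to 475 kb. Of these, 15 had Zcchc13 as the nearest start, against 1 in WT ESC, and 7 had Rlim, which encodes a ubiquitin ligase known as an activator of Xist, against 0.

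The 15 named promoters with the largest losses summed to 870 pairs in WT ESC, 239 in EpiSC and 494 in Nanog-/- ESC. Of their EpiSC pairs 82.0% were also in the WT ESC list, a share that the choice raises in the same way. Itgb1bp1, which encodes a regulator of integrin β1, went from 101 pairs to 19 (62 in Nanog-/- ESC). In fragments that overlap the neighboring Asap2 alone it had 45 pairs in WT ESC and 14 in EpiSC, all 14 shared, with highest scores of 26.8 and 12.1. In fragments that overlap both Asap2 and Itgb1bp1 it had 9 and 2, with highest scores of 38.3 and 6.43. Once partners within 1000 bp were joined, its partners formed 15 stretches in WT ESC and 11 in EpiSC, so the loss in number fell from 82 pairs to 4 stretches. Slc6a18, a transporter of the kidney, went from 58 to 6 (45), Calm3, a calmodulin gene, from 42 to 7 (23), Otub1, a deubiquitinase, from 49 to 14 (30) and Noc4l, a nucleolar protein, from 47 to 13 (22). RPKM was 14.1 and 25.6 at Itgb1bp1, 211 and 440 at Calm3 and 59.2 and 124 at Otub1, higher in EpiSC by close to the general shift between the columns.

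The set also held 3 promoters of a keratin cluster. Krtap17-1 went from 53 pairs to 9 (19 in Nanog-/- ESC), Gm14188 from 61 to 16 (20) and Krt23 from 75 to 33 (59), all in the keratin cluster of chromosome 11. Across the 60 baits of the 1 Mb window that starts at base 99000001 of that chromosome, pairs went from 1525 to 673, and 33 baits lost and 0 gained. The RPKM of Krtap17-1 and Gm14188 was 0 in both cell types. Olfr1347 went from 43 to 10 (22) and P2rx2, an ATP-gated channel, from 39 to 8 (19). The remaining members of this set were 0610010O12Rik (83 to 30), 1810063B07Rik (42 to 9), Tmem210 (44 to 13), Lsr (62 to 24) and Abt1 (71 to 28). The losses at Abt1, Krt23 and Lsr were not called after length weighting.

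**Figure D4:**
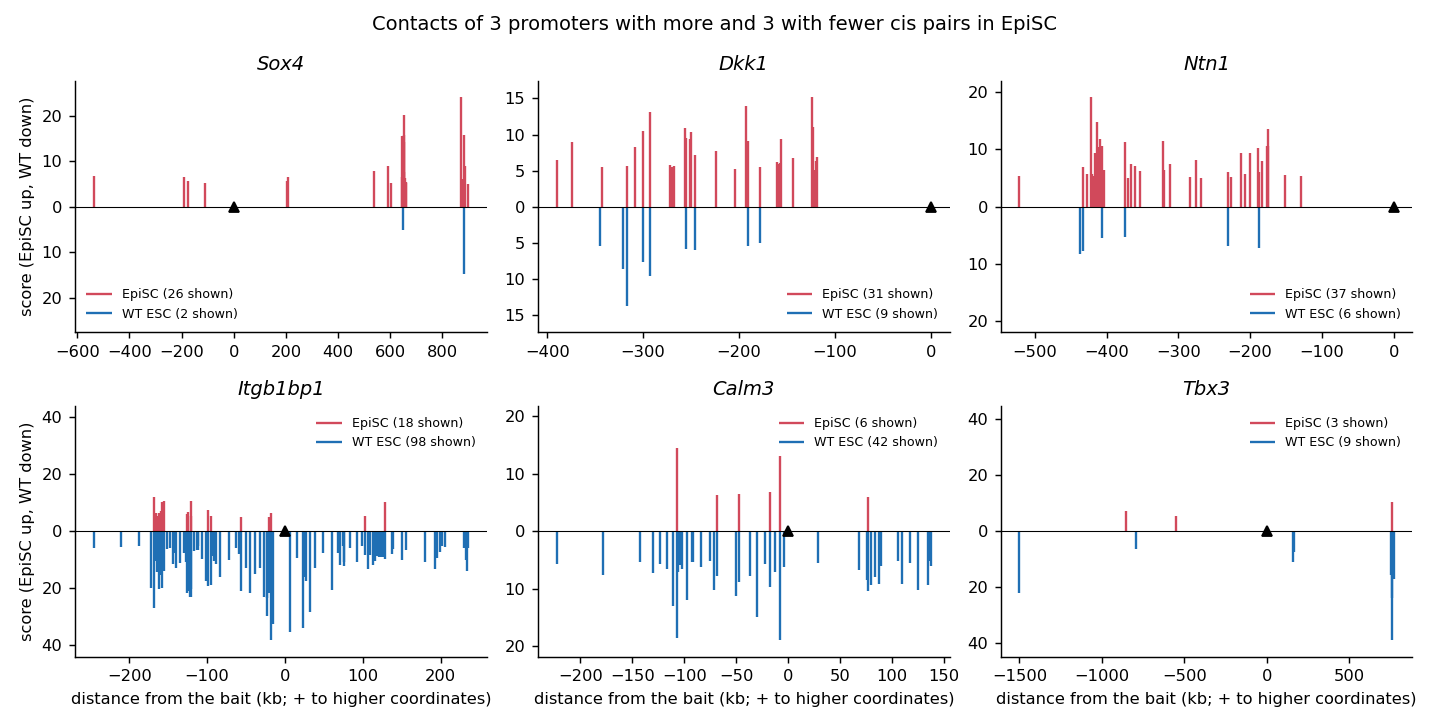
Contacts of 6 promoters: x axis, distance of the partner from the bait in kb (positive toward higher coordinates); y axis, CHiCAGO score, drawn upward for EpiSC and downward for WT ESC; the triangle marks the bait, and Itgb1bp1 and Calm3 are drawn within 500 kb. Sox4, Dkk1 and Ntn1 show many EpiSC lines over few WT ESC lines, Itgb1bp1 and Calm3 the opposite, and Tbx3 keeps 1 weaker EpiSC line at its 762 kb contact.

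Sox4, a SoxC transcription factor of progenitor cells, had the largest gain among the pluripotency and lineage lists. Its bait at the start of the gene, 632 bp long, had 2 pairs in WT ESC, 26 in EpiSC and 1 in Nanog-/- ESC. Of the 26, 20 lay in the body of Cdkal1, 539 to 899 kb away, and both WT ESC pairs lay there too. All 26 formed 12 separate stretches once partners within 1000 bp were joined. The fragment printed above had the highest score, 24.0 with 18 reads at 873 kb. A neighboring Sox4 bait had 0 pairs in WT ESC and 1 in EpiSC, in the same gene. Sox4 RPKM went from 23.4 to 127, a centered log2 ratio of 1.53.

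In the primed and general pluripotency lists, Sox3 and Sox2 also gained pairs, in smaller number. Sox3, an early neural SoxB1 factor, went from 3 pairs to 10 (0 in Nanog-/- ESC), with RPKM from 3.86 to 58.5. Sox2, which acts in both states, went from 3 to 9 (0 in Nanog-/- ESC) while its RPKM went from 397 to 137. The 1 shared Sox2 contact, the fragment printed above at 451 kb, had 6 reads and a score of 8.45 in WT ESC and 11 reads and 17.8 in EpiSC. A further 3 EpiSC pairs lay 835 to 848 kb away near Atp11b, where WT ESC had 0. The Sox2 gain was not called after length weighting. Over all 19 baits of the primed list 2 gained (10.5%) and 0 lost, against 4.77% and 9.94% over all promoters. Their summed ratio was 1.55 against 0.838 over all promoters (1.84 against 1.00 length-weighted), but their median was 3 pairs in both cell types. Of these baits 8 had more and 6 fewer pairs, among them Otx2 (4 to 1). Of 13 baits of the general list 1 gained (7.69%) and 0 lost, 4 had more and 7 fewer pairs, among them Pou5f1 (5 to 1), and the summed ratio was 0.951 (1.28 length-weighted).

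Naive genes had fewer pairs in EpiSC in sum. Of 18 baits, 0 gained and 3 lost (16.7%, against 9.94% over all promoters), with a summed ratio of 0.658 (0.745 length-weighted), below the ratios over all promoters. Sox15, a relative of Sox2, went from 14 pairs to 2 (13 in Nanog-/- ESC) with RPKM from 48.1 to 0.340. Zscan10, a zinc finger factor of ESC, went from 9 to 4 (4), and its RPKM was 82.4 and 76.8. Tbx3 is described with Lhx5 below. The other 15 baits met neither rule. After weighting, the loss at Sox15 was still called and those at Zscan10 and Tbx3 were not.

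The list of Nodal, FGF, BMP and Wnt signaling genes also held Lifr, which belongs to LIF signaling. Pairs were gained at 4 of its 31 baits (12.9%, against 4.77% over all promoters) and lost at 1 (3.23%, against 9.94%). The summed ratio was 1.33 (1.82 length-weighted). Fgfr1, the FGF receptor of the epiblast, went from 2 pairs to 16 at 1 bait (1 in Nanog-/- ESC) and from 6 to 7 at the next. Most of the 16 lay toward Tacc1, with 10 nearest to it, against 2 in WT ESC. Fgfr1 RPKM went from 25.97 to 110. Acvr2a, a type II Activin receptor, had 0 pairs in WT ESC and Nanog-/- ESC and 7 in EpiSC, 357 to 833 kb away, with RPKM from 6.32 to 21.3. Id1, a BMP target, went from 4 to 12 and kept all 4, with RPKM from 27.8 to 48.4, less than the general shift between the columns. Lifr, the LIF receptor, went from 4 to 10 while its RPKM went from 12.9 to 7.32. Wnt6, a Wnt ligand, was the 1 loss and went from 22 to 8, all 8 of them shared.

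Calls among germ layer regulators went both ways. Of 19 mesendoderm baits 1 gained (5.26%) and 2 lost (10.5%), near the 4.77% and 9.94% over all promoters. As listed, 12 of the 19 had fewer pairs and 3 had more, and the median went from 10 to 6. The summed ratio was 0.796 (1.01 length-weighted), against 0.838 (1.00) over all promoters. T, the Brachyury factor of the primitive streak, went from 12 pairs to 3 (7 in Nanog-/- ESC) while its RPKM went from 3.37 to 444. Mixl1, a homeobox gene of the same region, went from 13 to 4 (5) with RPKM from 0.318 to 6.25. Hhex, a homeobox gene of the anterior endoderm, went from 4 to 9 (7) with RPKM from 2.59 to 15.4. The loss at T was not called after length weighting. At T and Mixl1, then, RPKM was higher where fewer contacts were listed.

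Of 17 neuroectoderm baits 2 gained (11.8%) and 1 lost (5.88%), against 4.77% and 9.94% over all promoters. More of them had fewer pairs (10) than more pairs (6), and the median went from 6 to 4. The summed ratio was 1.07 (1.20 length-weighted). Pax6, the eye and forebrain homeobox factor, went from 6 pairs to 16 (0 in Nanog-/- ESC) at an RPKM of 1.45 and 2.02. Its cluster of contacts nearest to Wt1, 534 to 548 kb away, had 5 pairs in WT ESC, all shared, and 8 in EpiSC. Six3 went from 4 to 12 and Olig2 from 8 to 3. Among 36 other developmental factors, Foxc1 (1 to 8) and Alx4 (1 to 7) gained and Tbx5 (9 to 1) and Foxl2 (7 to 0) lost, 5.56% each way. These numbers ran both ways within the group.

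Lhx5, a LIM homeobox factor of the forebrain, had 36 pairs in both lists but other partners. In WT ESC 10 of its partners had Tbx3 as the nearest start and 12 had Tbx5, at distances of 589 to 779 kb. In EpiSC 5 were left near Tbx3 and 0 near Tbx5, while partners nearest to Rbm19, 161 to 306 kb away, went from 6 to 23. The contact between the Lhx5 and Tbx3 promoter fragments had 40 reads and a score of 39.0 in WT ESC and 7 reads and 10.6 in EpiSC. The contact of Lhx5 with the Tbx5 promoter fragment had 27 reads and a score of 33.2 in WT ESC and was not listed in EpiSC. Both were also in the Nanog-/- list. The median distance of Lhx5 pairs went from 615 to 220 kb, and 30.9% of its partners were common to both lists.

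The same contacts were seen from the other ends. Tbx3, a T-box factor of naive ESC, went from 9 pairs to 3 (6 in Nanog-/- ESC), of which 5 and 1 were nearest to Lhx5, and its RPKM went from 14.9 to 0.526. Tbx5, a heart and limb T-box factor, went from 9 to 1 (6 in Nanog-/- ESC), of which 4 and 0 were nearest to Lhx5, at an RPKM of 0.0478 and 0.372. Tbx3 also had a contact with the fragment of Hrk, 1500 kb away, with a score of 22.0 in WT ESC, and it was not listed in EpiSC. Lhx5 itself kept its contact with Hrk, 2262 kb away, at scores of 29.3 and 14.8. RPKM of Lhx5 was 0.00986 and 0.0660.

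Among the 1115 promoters with at least 15 pairs in each list, a median of 40.9% of partners was common, from 9.68% to 78.4%. The median distance got longer at 451 and shorter at 629 of them. The promoters with the smallest common share were Dis3l (9.68%), Asb4 (10.0%), Adcy3 (10.5%), Mir129-2 (12.1%), 1300010F03Rik (13.3%) and 4933437F05Rik (13.9%). Asb4 is an imprinted gene. Its 33 WT ESC pairs had 21 partners nearest to Casd1, 720 to 829 kb away, of which 1 was left in EpiSC, while partners in the body of Ppp1r9a went from 5 to 14. Its median distance went from 739 to 280 kb and its RPKM from 0.376 to 11.3.

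The highest common share was at Hoxc5, with 68 pairs in WT ESC, 64 in EpiSC and 58 in both. Next were Scnn1g (77.4%), Myo7b (76.9%), Cnih2 (76.5%), Zfp90 (76.5%) and BC049635 (76.0%). RPKM was below 1 in both cell types at Hoxc5, Scnn1g, Myo7b and BC049635, and that of Cnih2 went from 5.52 to 21.9. Median distance was shorter in EpiSC also at Tlx1 (397 to 95.01 kb), Gm13330 (644 to 302 kb), Pdzk1ip1 (644 to 370 kb) and Krt77 (314 to 89.5 kb). It was longer in EpiSC at Abt1 (171 to 1410 kb), Krt9 (142 to 585 kb), Hoxa6 (47.7 to 339 kb), Lce6a (213 to 464 kb), Crygs (243 to 477 kb) and Pax2 (166 to 385 kb). At Abt1, near the histone cluster of chromosome 13, the close partners differed most. Its 5 pairs nearest to Abt1, 6 nearest to Btn1a1 and 7 nearest to Btn2a2 in WT ESC were all missing in EpiSC, while 10 pairs nearest to Zfp184, 1462 to 1517 kb away, were listed in EpiSC against 13 in WT ESC.

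Gene clusters and families differed in how far their numbers moved. Of 616 olfactory receptor baits 3 gained and 82 lost (13.3%, against 9.94% over all promoters), or 5 and 38 after length weighting, with a summed ratio of 0.521 (0.618 length-weighted) and a median of 3 pairs in WT ESC, 1 in EpiSC and 0 in Nanog-/- ESC. Of 21 clustered protocadherin baits 0 gained and 7 lost (33.3%, against 9.94% over all promoters), with a summed ratio of 0.627 (0.802 length-weighted). Pcdha11 went from 37 pairs to 9 and Pcdhb3 from 25 to 7. Both families hold many related genes, and how well reads could be placed among them was not tested. Of 31 Hox baits 0 gained and 4 lost (12.9%), against 4.77% and 9.94% over all promoters. The 4 were Hoxb3, Hoxb4, Hoxb6 and Hoxb7, all in the HoxB cluster, and 0 of the 4 were called after length weighting. Their range was 17 to 33 pairs in WT ESC and 6 to 16 in EpiSC.

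Of 55 cytosolic ribosomal protein baits 1 gained (1.82%), Rpl29 (8 to 25), and 6 lost (10.9%), among them Rps15 (10 to 2) and Rpsa (10 to 2). The shares over all promoters were 4.77% gained and 9.94% lost. The family ratio was 0.972 as listed and 1.23 length-weighted, above the ratio over all promoters (0.838 and 1.00) in each case. Of 31 replication-dependent histone baits 1 gained and 2 lost (3.23% and 6.45%), with a summed ratio of 1.07 (1.23 length-weighted). Of 231 Zfp baits 7 gained and 15 lost (3.03% and 6.49%), with a summed ratio of 0.791 (0.961 length-weighted). Zfp628 (6 to 24) and Zfp750 (11 to 25) had the largest gains and Zfp689 (28 to 5) and Zfp184 (31 to 9) the largest losses there. Of 16 germline baits 1 gained and 4 lost (6.25% and 25.0%). Tex19.1, a germline gene active in naive ESC, went from 3 pairs to 13 while its RPKM went from 67.4 to 1.12, and Tuba3a, Stk31, Dpep3 and Taf7l lost pairs at RPKM that was also lower in EpiSC. Chromatin modifiers had 0 gained and 0 lost of 23, against shares of 4.77% and 9.94% over all promoters.

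Local gene density moved with the numbers. Promoters with fewer than 5 annotated starts in the surrounding 1000 kb had 1.21 times as many pairs in EpiSC as in WT ESC, and those with 40 or more 0.665 times as many. The length-weighted ratios were 1.33 and 0.835, so the slope held after weighting, and the Nanog-/- to WT ESC ratios ran the other way, from 0.449 to 0.788. In the sparse class 6.30% gained and 2.72% lost (5.96% and 1.85% length-weighted), and in the dense class 1.92% and 21.3% (3.01% and 9.57%). By chromosome the ratio was lowest on 17 (0.736), 10 (0.745) and 11 (0.754) and highest on X (1.18, or 1.39 length-weighted). The 1 Mb windows with the largest added numbers held Tbx2 and Tbx4 on chromosome 11 (55 to 172 pairs), Igf2 and Ascl2 on chromosome 7 (134 to 233), Myod1 (217 to 301), Rab30 (35 to 95) and Timp3 on chromosome 10 (78 to 138), followed by that of Xist on X (10 to 68).

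Partners differed between the classes of pairs. Among unbaited partners, 37.1% of WT ESC-only, 33.5% of shared and 24.3% of EpiSC-only ones overlapped an exon, and 24.6%, 27.0% and 34.7% lay within an intron. Longer fragments overlap exons more often. Within 1 class of bait and partner length the exon shares were 35.8%, 36.8% and 31.9%, so most of that gap was gone. Median GC was 46.3%, 47.0% and 45.5%, against 41.0% over all HindIII fragments. CG occurred 11.6, 12.2 and 11.3 times per kb, against 8.34 over all fragments. Bait-to-bait pairs per promoter had an EpiSC to WT ESC ratio of 0.691 and other pairs 0.927, but 0.998 and 1.00 after length weighting.

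RPKM values are the authors' medians per cell type, with no value per sample. Log2 ratios are of RPKM + 1, EpiSC over WT ESC, less 0.85, which was the median over genes of at least 1 RPKM in both, and they understate changes of low genes. Of the 10606 promoters whose gene had at least 1 RPKM in either cell type, 14.1% were at least 2-fold higher and 15.4% at least 2-fold lower in EpiSC. Among the 615 gained ones, 20.3% were higher and 10.2% lower, with a median log2 ratio of 0.20. Among the 987 lost ones, 11.7% were higher and 15.6% lower, with a median of -0.06. The shares ran with the size of the gain. At 31 promoters with 20 or more added pairs, 35.5% were higher and 3.23% lower, whereas at 55 with 20 or more fewer pairs, 16.4% were higher and 10.9% lower. Across all 10606, Spearman's rho between the change in number and the log2 ratio was 0.06, over promoters that share libraries and neighboring fragments and are not replicates.

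**Figure D5:**
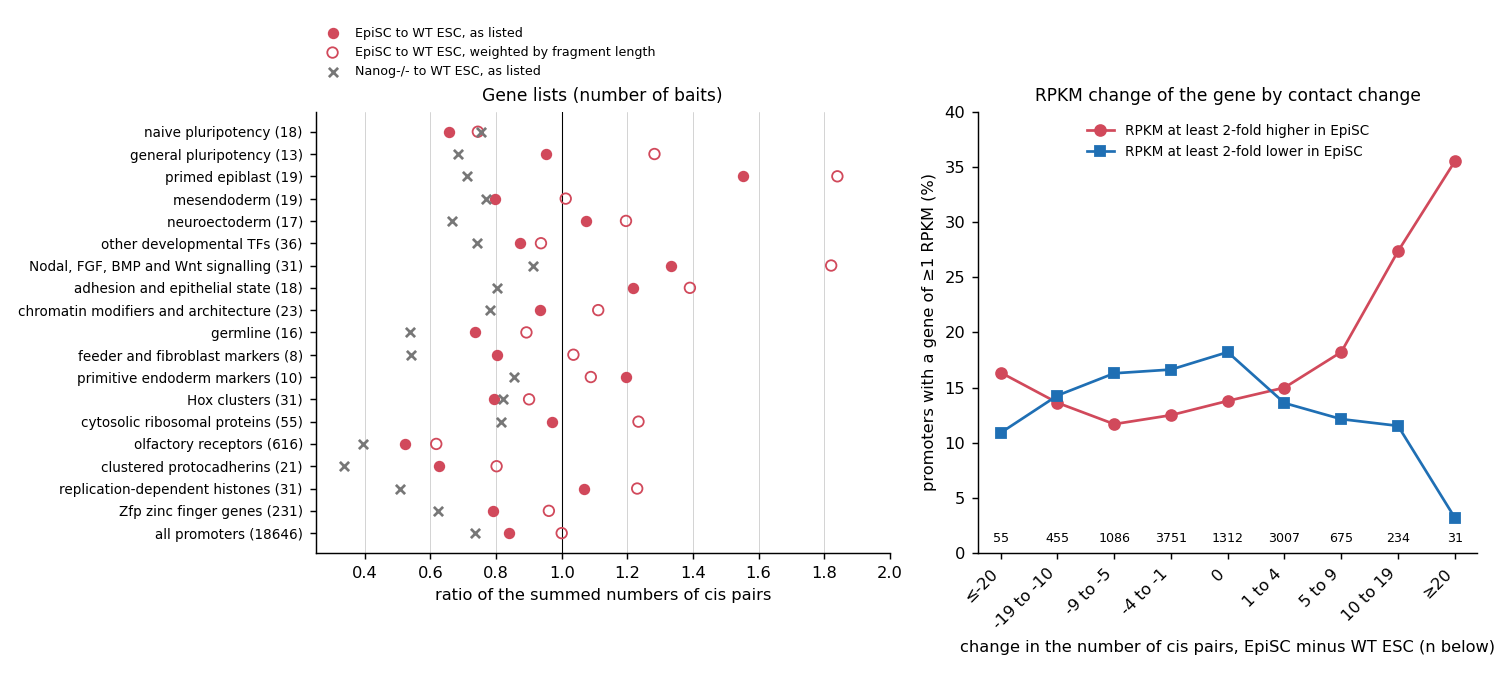
Left, ratio of summed cis pairs to WT ESC (x axis) for each gene list (y axis, number of baits in brackets), as listed (filled), length-weighted (open) and for Nanog-/- ESC (cross). Right, share of promoters whose gene was at least 2-fold higher (red) or lower (blue) in EpiSC (y axis, percent) by change in the number of pairs (x axis), with the number of promoters along the base; the red line reaches 35.5% at 20 or more added pairs.

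Single genes at the extremes show both signs. Dkk1, a secreted Wnt inhibitor, went from 9 pairs to 31 (10 in Nanog-/- ESC) and from 0.363 to 41.6 RPKM. All of its EpiSC partners lay at lower coordinates, 119 to 390 kb away, and 29 of 31 were between genes. Penk, proenkephalin, went from 12 pairs to 34 (8) and from 2.97 to 115 RPKM, Pkdcc, a secreted kinase, from 13 to 30 (14) and from 6.996 to 282 RPKM, and Igfbp5, an IGF binding protein, from 5 to 19 (2) and from 0.673 to 120 RPKM. Col3a1, a fibrillar collagen, went from 1 to 6 (0) and from 2.66 to 102 RPKM. These 5 are the gained promoters with the highest log2 ratios.

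Several of these genes are also made by other cells. Summed over the 5 feeder or fibroblast markers in the table, RPKM went from 45.5 to 401, with Col1a1 from 15.0 to 137, and over 6 primitive endoderm markers from 3.96 to 123, with Foxa2 from 0.831 to 90.5 but Gata4 at 1.29 and 0.976 and Sox7 at 0.127 and 0.358. Among baits of the longer lists for these cells, Col3a1 gained of 8 feeder baits (12.5%), and Sparc (5 to 13) and Lamb1 (2 to 7) of 10 primitive endoderm baits (20.0%). The share over all promoters was 4.77%, and 0 baits of either list met the rule for a loss. Of the 8 feeder baits, though, 5 had fewer pairs and 3 more, with a summed ratio of 0.803 (1.04 length-weighted). Of the 10 primitive endoderm baits 4 had more and 2 fewer, with a summed ratio of 1.20 (1.09 length-weighted). Over all promoters the ratio was 0.838 (1.00 length-weighted). The part of such cells in these contacts was not tested, and more RNA per cell cannot be told apart from more cells.

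At other gained promoters RPKM was lower in EpiSC. Besides Tex19.1, these were Tdrd12 (1 to 9 pairs, 50.9 to 0.880 RPKM), a germline piRNA factor, Btg3 (3 to 9, 52.3 to 0.641 RPKM), an antiproliferative gene, Gm11808 (4 to 10) and Gm10146 (10 to 24), of which the last pair may share reads with copies elsewhere. Lost promoters with higher RPKM were, besides T, Isg15 (9 to 2 pairs, 2.24 to 180 RPKM) and Usp18 (13 to 4, 0.410 to 63.7 RPKM), both interferon-induced, Tgfb2 (9 to 4, 0.623 to 44.3 RPKM) and Foxa1 (15 to 5, 0.330 to 33.4 RPKM), a pioneer factor of endoderm. Lost promoters with the lowest ratios were Rps27, Gm4963, Gstp2, Rps26-ps1 and Gm10269. Their RPKM is uncertain, as copies elsewhere may share reads, which was not tested. These sets were picked by their RPKM ratios, so their directions are a description of the extremes. Whole gene families also had low ratios. The median log2 ratio was -2.63 over the 55 cytosolic ribosomal protein baits. Over 26 replication-dependent histone baits of at least 1 RPKM in either cell type it was -1.62. The cause of these family values was not tested.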

How the data were processed

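PCHi-C and RNA-seq of WT ESC, EpiSC and Nanog-/- ESC were used. The authors mapped PCHi-C reads with HiCUP, combined 2 biological replicates per cell type and called pairs with CHiCAGO, and the submitters' processing notes name Bowtie 1.1.0, mm10 and GRCm38. Each deposited list gives the read count and the score of both ends of a pair, and the lowest score in the files is 5. Where 2 promoters list each other, their fragment pair was merged into 1. The deposited RNA-seq table gives the authors' median RPKM per cell type (Trim Galore, TopHat and DESeq2 are named in the notes). It also holds fold changes and p-values from the authors' comparisons, which were not used. The ChIP-seq files were not used here.

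All 96056 listed fragments were found in a HindIII digest of GRCm38, and GENCODE vM21 gave starts, exons and introns. Gained and lost promoters, the Wilson intervals (95%) and length weighting (10 by 10 classes) were computed with Python 3.11.15, numpy 2.4.6 and pandas 2.3.3, figures with matplotlib 3.10.9, and the counting was checked on simulated data. Because the authors gave 1 list per cell type, no test was run and no count model was fitted. A bait was given an RPKM value only where exactly 1 gene of its name was in the RPKM table. Taking the gene with the highest RPKM instead was an alternative, and it left the gained minus lost median log2 RPKM ratio at 0.55. A pseudocount of 1 was added before log2.

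The members and gene lists were chosen with earlier results of these data known. Named promoters are the 15 with the largest gain and the 15 with the largest loss, 1 per run within 200 kb; gained or lost members of the gene lists; the 6 extremes of common partners and of distance change each way among baits with 15 or more pairs in each list; and the 5 extremes of log2 RPKM each way among gained and lost promoters. Baits without a gene symbol (2142) were counted but not named, and Tbx3 and Tbx5 contacts were followed from Lhx5 after the values were seen. Alternatives were a higher score, scaling, joined partners, a distance limit, unbaited partners, a larger difference and other RPKM settings. Length weighting was added after seeing the data.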

Additional observations from a re-analysis of the deposited data

How the results depend on the processing

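The 30 promoters named for the largest gains and losses kept their direction under the 6 alternatives that give a number per promoter, but the size of the difference moved at all 30 with partners joined (Itgb1bp1 from -82 to -4, Calm3 from -35 to -4, Fam120b from 42 to 5), at 18 at a score of at least 7, at 7 length-weighted and at 3 with unbaited partners. Gained and lost counts (889 and 1853) were 467 and 937 at a score of at least 7, 1000 and 1079 with WT ESC scaled to the EpiSC total, 502 and 1235 with neighboring partners joined, 904 and 1180 with unbaited partners, 281 and 682 at a difference of at least 10, and 1028 and 884 length-weighted, which was added once the data had been seen. The share of WT ESC cis pairs in EpiSC (39.6%) was 38.4% at a score of at least 7, 38.5% for unbaited partners and 63.4% where a partner within 10 kb counted. The share of EpiSC pairs in WT ESC (45.4%) was 43.6%, 41.5% and 69.7%, and 47.9% with partners joined. EpiSC minus WT ESC median distance (1.9645 kb) was 11.2 kb at a score of at least 7, 5.24 kb for unbaited partners and 1.43 kb for pairs of at most 1 Mb. The gained minus lost median log2 RPKM ratio (0.55 over all genes in the table) was 0.52 at a score of at least 7, 0.56 scaled, 0.59 joined, 0.56 at most 1 Mb, 0.51 unbaited, 0.54 with a pseudocount of 0.1, 0.67 length-weighted and 0.26 over genes of at least 1 RPKM in either cell type. Genes under 1 RPKM in both cell types made up 36.6% of lost and 17.4% of gained promoters with an RPKM value. After centering, a gene at 0 RPKM in both has a log2 ratio of -0.85. Of the RPKM differences above, only the 0.26 leaves such genes out. Where values moved, the cause was not tested. No paired analysis was possible because the lists hold 1 value per cell type with no replicate number. For the same reason no replicate could be left out. A pair missing from a list may lie just under the score threshold, and the WT ESC list has more reads, so absence from a list is not absence of contact.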

Other observations

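Unbaited partner fragments were also counted from their own side. Of 67700 such fragments, 25389 (37.5%) were partners in both lists, 21158 in WT ESC only and 21153 in EpiSC only. At least 3 more promoters reached the fragment in EpiSC at 1249 and at least 3 fewer at 2155. The largest rise in number was at a fragment 19.6 kb from Krt8, a keratin gene of simple epithelia on chromosome 15, which was a partner of 9 promoters in WT ESC, 21 in EpiSC and 6 in Nanog-/- ESC. Its neighbor fragment went from 12 to 22 promoters (13 in Nanog-/- ESC). Most of these promoters belong to other keratins of the same cluster.

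A fragment of 194 bp near Lelp1 on chromosome 3 went from 2 to 13 promoters (0 in Nanog-/- ESC), among them Sprr and Lce genes of the cornified envelope. A fragment of 165 bp in an intron of Slc4a5 on chromosome 6 went from 4 to 14 (6). In the keratin cluster of chromosome 11, a fragment of 6287 bp near Krtap9-5 went from 18 promoters to 1 (5 in Nanog-/- ESC) and a fragment of 2350 bp near Krt40 from 12 to 0 (2). Fragment lengths stood apart here too, with the fragments of the largest added numbers often short. The part of fragment length in these numbers was not tested. Pairs between chromosomes numbered 786 in WT ESC and 388 in EpiSC and were not compared by promoter.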
